A study of Mus musculus with 4 samples.

Results

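The RNA-seq libraries of *Patz1* KO and WT cervical motor neurons (MNs) were examined for 10 genes that hydroxylate, crosslink or chaperone collagen. The prolyl 4-hydroxylase subunits *P4ha1*, *P4ha2* and *P4ha3*, the lysyl hydroxylases *Plod1*, *Plod2* and *Plod3*, the lysyl oxidases *Lox* and *Loxl2*, the collagen chaperone *Serpinh1* and the matrix protein *Sparc* were taken by symbol. They are 10 of the 23420 symbols counted in each library. The genes were chosen by symbol with their differences between WT and *Patz1* KO in these same libraries already known. Those differences are therefore given as a description, with an interval for their error and with no p. The calls that a fit across all genes made among them are only counted, and support nothing.

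The 2 WT libraries came from MNs differentiated from the mouse embryonic stem cell (mESC) line E14, and the 2 *Patz1* KO libraries (genotype *Patz1* -/-) from MNs of a derivative of that line edited at *Patz1* with CRISPR/Cas9. Both genotypes were grown as embryoid bodies and patterned with retinoic acid and smoothened agonist, and the methods describe the KO lines as single clones without tying a library to a clone. The sample titles name ESCs, whereas the source and cell type name MNs, and each group was taken as MNs. *Patz1* itself was counted 1363 and 1499 times in WT against 1154 and 714 times in *Patz1* KO. That gave 92.8 ± 1.96 and 45.1 ± 3.56 CPM (counts scaled to library size, mean ± SD, n = 2), a log2 fold change of -1.04 (SE 0.0951, edgeR adjusted p = 1.09e-07). RNA counts do not measure protein, and the paper reports PATZ1 protein as lost in its *Patz1* KO mESC lines. Exons of *Patz1* overlap *Gm11944* on the same strand and *Gm12592* on the other.

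Newly made collagen chains are modified in the endoplasmic reticulum before they fold. Prolyl 4-hydroxylases give the triple helix its heat stability, and lysyl hydroxylases make the hydroxylysines used for sugar attachment and for crosslinks. Both enzyme families need molecular oxygen, iron and 2-oxoglutarate, and genes such as *P4ha1*, *P4ha2*, *Plod1*, *Plod2* and *Lox* are textbook targets of the hypoxia-inducible factors. HSP47, the product of *Serpinh1*, holds the folded helix until export, lysyl oxidases start the crosslinks outside the cell, and SPARC binds collagens in the matrix. Collagen IV of basement membranes and the fibrillar collagens are the main clients.

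Total counts went from 14769104 to 23881522 per library. Values are CPM relative to TMM-normalized library sizes, and log2 fold changes (log2FC) are *Patz1* KO over WT. Of the symbols, 14269 had enough counts to be tested with edgeR. Of these, 47.9% passed an adjusted p of 0.05 in either direction, 24.1% as higher in *Patz1* KO and 23.8% as lower. The libraries of the 2 genotypes did not overlap in 74.2% of the tested genes. The median log2FC over all tested genes was -0.0014. A floor of 3 counts was 0.124 to 0.201 CPM, for counting error only since the reads carry no molecular identifiers.

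Promoter sequences from RefSeq (GRCm38.p6, the same assembly as mm10) were matched for 7 of the 10 genes, while *Plod2*, *Lox* and *Loxl2* had no entry. The 250 bases before the start of 5 genes are shown because they include the 3 prolyl 4-hydroxylase subunits, which differed in direction, and because *Plod3* and *Serpinh1* had negative fold changes. Capitals mark ACGTG or GCGTG, the core of the hypoxia response element, on either strand, with overlapping matches counted separately. The windows are chr10:59323046-59323295 (plus strand) for *P4ha1*, chr11:54100674-54100923 (plus) for *P4ha2*, chr7:100285270-100285519 (plus) for *P4ha3*, chr5:136986769-136987018 (plus) for *Plod3* and chr7:99353240-99353489 (minus) for *Serpinh1*. Each is written 5′ to 3′ on the strand of its gene, and that of *P4ha2* precedes a RefSeq start at 54100924, inside the GENCODE span of the gene.
P4ha1: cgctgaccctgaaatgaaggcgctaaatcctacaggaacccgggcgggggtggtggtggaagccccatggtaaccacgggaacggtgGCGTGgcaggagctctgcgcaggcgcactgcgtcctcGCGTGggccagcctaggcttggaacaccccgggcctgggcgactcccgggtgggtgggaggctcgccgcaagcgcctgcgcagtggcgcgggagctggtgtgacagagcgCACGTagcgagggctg
P4ha2: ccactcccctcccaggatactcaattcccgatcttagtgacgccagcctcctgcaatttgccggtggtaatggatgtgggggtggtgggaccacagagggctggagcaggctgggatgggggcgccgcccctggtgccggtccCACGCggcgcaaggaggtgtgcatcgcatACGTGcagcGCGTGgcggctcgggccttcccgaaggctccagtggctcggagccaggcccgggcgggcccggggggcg
P4ha3: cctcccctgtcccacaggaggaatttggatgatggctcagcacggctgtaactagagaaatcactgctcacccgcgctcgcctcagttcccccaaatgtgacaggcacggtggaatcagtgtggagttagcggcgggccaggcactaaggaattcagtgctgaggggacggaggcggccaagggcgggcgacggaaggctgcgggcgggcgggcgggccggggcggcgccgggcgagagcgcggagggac
Plod3: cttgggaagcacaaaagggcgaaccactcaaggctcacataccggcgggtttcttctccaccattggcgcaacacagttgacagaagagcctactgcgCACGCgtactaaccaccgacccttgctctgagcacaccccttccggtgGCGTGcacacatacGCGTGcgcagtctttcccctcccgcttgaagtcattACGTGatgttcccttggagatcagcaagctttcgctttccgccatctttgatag
Serpinh1: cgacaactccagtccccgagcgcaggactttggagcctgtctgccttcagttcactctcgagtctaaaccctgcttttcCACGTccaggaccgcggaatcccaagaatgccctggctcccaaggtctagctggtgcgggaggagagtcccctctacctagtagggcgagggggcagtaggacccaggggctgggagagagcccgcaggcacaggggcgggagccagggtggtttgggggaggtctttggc

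There were 3 matches for *P4ha1*, 3 for *P4ha2*, 0 for *P4ha3*, 4 for *Plod3* and 1 for *Serpinh1*. *Plod1* had 1 match in a window not shown. The RefSeq start given for *Sparc* lies inside the gene, with 238 of the 250 bases before it in GENCODE exons, so that window was not taken as its promoter. Across all 32851 promoters of the same length, 38.6% held at least 1 match. A match of these short letters describes the window and is not evidence of binding. CG dinucleotides numbered 24 for *P4ha1*, 21 for *P4ha2*, 23 for *P4ha3*, 17 for *Plod3* and 11 for *Serpinh1*.

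Of the 10 genes, 9 were tested and *Lox* was too low. Fitted values of *P4ha1*, *P4ha2*, *Plod1* and *Plod2* were above 0, and those of *P4ha3*, *Plod3*, *Loxl2*, *Serpinh1* and *Sparc* were below 0. The fit across all genes called 7 of the 9 (not *Plod3* and *Loxl2*), beside 47.9% of all tested genes. The libraries did not overlap for 8 of the 9, beside 74.2% of all. The genes were chosen from this same contrast, so these counts are no test of it and nothing is read from them. The median log2FC of the 9 was -0.11, as the values ran in both directions from -1.35 to 1.34. In bulk samples such as these, fewer cells of a type and less RNA per cell cannot be told apart.

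**Figure D1:**
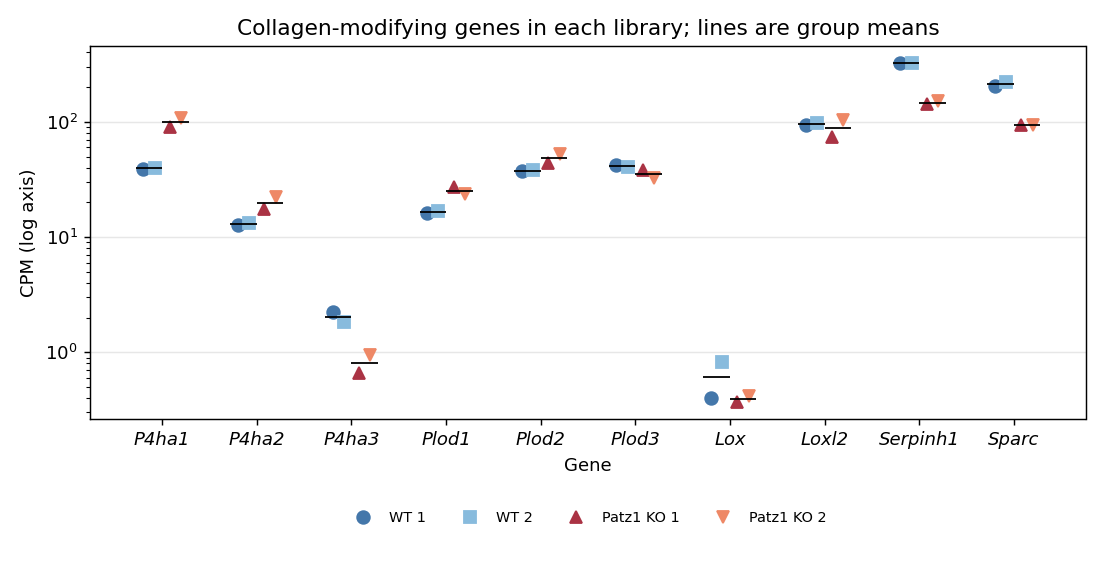
Level of each of the 10 genes in CPM (log axis) in the 2 WT and 2 *Patz1* KO libraries, with a point per library and a line at the group mean. *P4ha1* went from 38.8 and 40.0 in WT to 91.1 and 109 in *Patz1* KO, *Serpinh1* and *Sparc* lay lower in both *Patz1* KO libraries, and the groups overlapped for *Lox* and *Loxl2*.

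*P4ha1* encodes the most widely used catalytic subunit of prolyl 4-hydroxylase and lies on chromosome 10 from 59323296 to 59373304 (GRCm38, plus strand). It had 38.8 and 40.0 CPM in the WT libraries and 91.1 and 109 CPM in the *Patz1* KO libraries. Both *Patz1* KO libraries were above both WT libraries, and the gap was larger than the distance between replicates. The log2FC was 1.34 (SE 0.103, 95% interval 1.12 to 1.56), which is 2.53-fold.

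*P4ha2*, the second catalytic subunit (chromosome 11, 54100095 to 54131665, plus strand), had 12.7 and 13.2 CPM in WT and 17.6 and 22.2 CPM in *Patz1* KO. The groups again did not overlap, with a smaller difference and more spread in *Patz1* KO. Its log2FC was 0.61 (SE 0.143, interval 0.30 to 0.91), or 1.52-fold.

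*P4ha3*, the third subunit (chromosome 7, 100285520 to 100319699, plus strand), went the other way. It was counted 33 and 29 times in WT and 16 and 16 times in *Patz1* KO, or 2.21 and 1.82 CPM against 0.660 and 0.953 CPM. The groups did not overlap, but the counts were small. The log2FC was -1.35 (SE 0.377, interval -2.14 to -0.56), so that WT was 2.55-fold above *Patz1* KO. With a library left out in turn it ran from -1.59 to -1.07.

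The 3 subunits summed to 53.8 and 55.0 CPM in WT and 109.3 and 132 CPM in *Patz1* KO. Per kb of exon, *P4ha1* made up 77.4% and 78.3% of the family in WT and 88% and 87.3% in *Patz1* KO. The share of *P4ha2* was 16.8% and 17.0% in WT and 11.2% and 11.7% in *Patz1* KO, although its level was higher. For *P4ha3* it went from 5.79% and 4.68% to 0.836% and 1.00%. Levels of *P4ha1* per kb were 4.62 and 4.59 times those of *P4ha2* in WT and 7.86 and 7.43 times in *Patz1* KO. A tetramer of prolyl 4-hydroxylase pairs such subunits with the protein disulfide isomerase encoded by *P4hb*, which had 433 and 428 CPM in WT and 421 and 384 CPM in *Patz1* KO (log2FC -0.10, SE 0.0968, edgeR adjusted p = 0.438). Counts of *P4ha1* were 0.0897 and 0.0935 of those of *P4hb* in WT and 0.216 and 0.283 in *Patz1* KO.

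**Figure D2:**
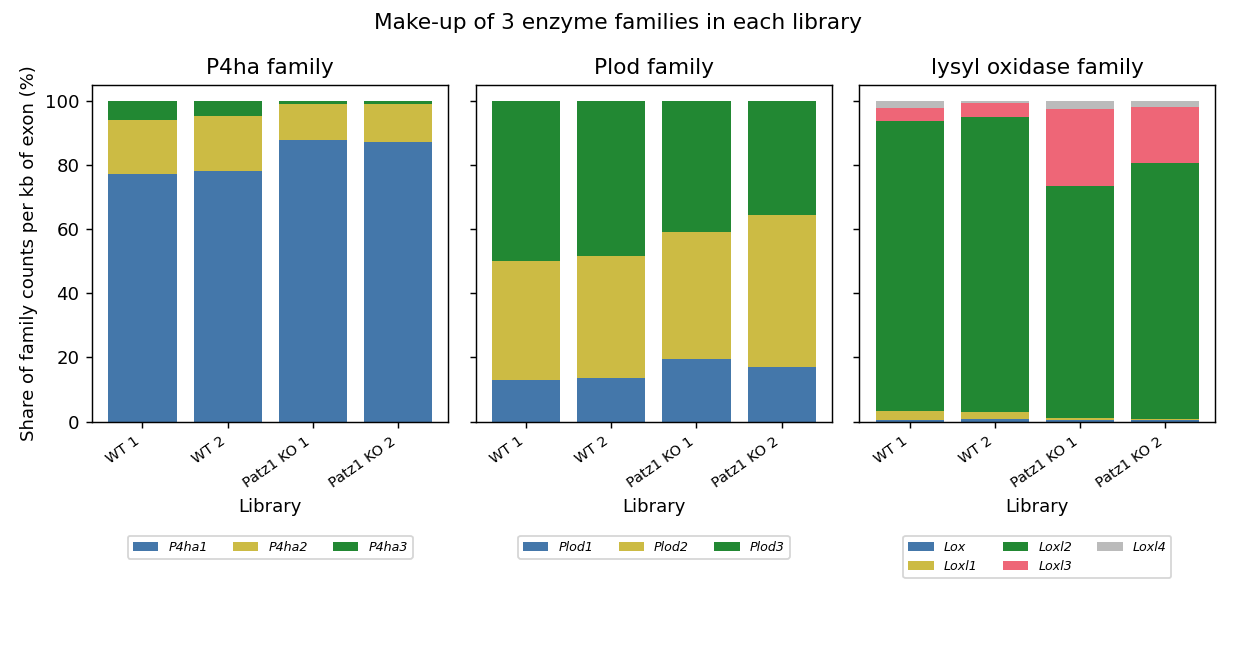
Share of each gene in the counts per kb of exon of its enzyme family (%), with a stacked bar for each of the 4 libraries and 3 panels for the P4ha, Plod and lysyl oxidase families. *P4ha1* took 77.4% and 78.3% of its family in WT and 88% and 87.3% in *Patz1* KO, while *Loxl3* took 4.18% and 4.45% against 24.0% and 17.6%.

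Lysyl hydroxylases differed less. *Plod1*, which acts mainly on lysines within the helix, lies on chromosome 4 from 147909753 to 147936767 (minus strand). It had 16.2 and 17.0 CPM in WT and 27.0 and 23.5 CPM in *Patz1* KO. The groups did not overlap, and the log2FC was 0.61 (SE 0.124, interval 0.35 to 0.87), or 1.53-fold.

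*Plod2* modifies the telopeptides that set the kind of crosslink in fibrils (chromosome 9, 92542223 to 92608428, plus strand). It had 37.1 and 38.3 CPM in WT and 44.0 and 52.2 CPM in *Patz1* KO. The *Patz1* KO libraries were higher, by an amount close to the distance between them. Its log2FC was 0.35 (SE 0.105, interval 0.13 to 0.57), and it ran from 0.23 to 0.47 with a library left out in turn. The exons overlap *Gm38391* on the other strand, and the strand setting of the counting is not given in the sources used here.

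*Plod3* carries glycosyltransferase activity besides lysyl hydroxylation and is known for its part in making collagen IV (chromosome 5, 136987019 to 136996648, plus strand). It had 41.9 and 40.7 CPM in WT and 38.1 and 32.6 CPM in *Patz1* KO. The libraries did not overlap. The log2FC was -0.22 (SE 0.104) with an interval of -0.44 to -0.0009, and it ran from -0.34, without *Patz1* KO replicate 1, to -0.11 with a library left out in turn. Its exons overlap *Mir702* on the same strand and *Znhit1* on the other.

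Summed, the 3 Plod genes had 95.2 and 96.0 CPM in WT and 109.1 and 108 CPM in *Patz1* KO, a smaller difference than that of the P4ha sum. *Plod3* made up 50.0% and 48.3% of the family per kb in WT and 40.9% and 35.4% in *Patz1* KO. *Plod2* had 37.1% and 38.2% in WT and 39.7% and 47.5% in *Patz1* KO. The share of *Plod1* was 12.9% and 13.5% in WT against 19.4% and 17.0%. In WT *Plod3* was thus the most abundant lysyl hydroxylase per kb, whereas in *Patz1* KO *Plod2* and *Plod3* lay within the spread of the replicates.

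Lysyl oxidases oxidise lysines and hydroxylysines of secreted collagen and elastin. *Lox* (chromosome 18, 52516067 to 52529867, minus strand) was counted 6 and 13 times in WT against 9 and 7 times in *Patz1* KO. That is 0.403 and 0.817 CPM against 0.371 and 0.417 CPM, and the groups overlapped. Counts this low could not show a difference. Its exons overlap *AC161119.1* on the other strand.

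*Loxl2*, an oxidase that also acts on collagen IV, was well expressed (chromosome 14, 69609068 to 69695834, plus strand). It had 93.6 and 97.5 CPM in WT and 73.3 and 104 CPM in *Patz1* KO. The *Patz1* KO libraries lay on both sides of WT. The log2FC was -0.11 (SE 0.122, interval -0.37 to 0.14), and it depended on 1 library, with -0.38 without *Patz1* KO replicate 2 and 0.13 without replicate 1. Its exons overlap *Mir6950* on the same strand and *Gm27177* on the other.

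The rest of this family is not among the 10 genes and its values follow for context. *Loxl3* rose from 3.69 and 4.02 CPM in WT to 20.6 and 19.6 CPM in *Patz1* KO (log2FC 2.38, SE 0.164, edgeR adjusted p = 3.05e-09). *Loxl1*, which acts on elastin, fell from 27 and 23 counts to 9 and 8 (log2FC -1.95, SE 0.437, edgeR adjusted p = 0.00131). *Loxl4* was counted 26 and 8 times in WT against 46 and 29 times in *Patz1* KO, and the groups overlapped in CPM. It was called without WT replicate 1 (log2FC 1.84). Per kb, *Loxl2* made up 90.4% and 91.8% of the 5 oxidases in WT and 72.6% and 79.7% in *Patz1* KO, while *Loxl3* went from 4.18% and 4.45% to 24.0% and 17.6%. *Loxl3* overlaps *Htra2* on the other strand.

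*Serpinh1* encodes HSP47, a chaperone specific to procollagen (chromosome 7, 99345376 to 99353239, minus strand). It had 324 and 325 CPM in WT and 142 and 151 CPM in *Patz1* KO. The groups were far apart compared with their spread. The log2FC was -1.14 (SE 0.0880, interval -1.33 to -0.96), with WT 2.21-fold above *Patz1* KO.

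*Sparc*, a calcium-binding glycoprotein of basement membranes and bone (chromosome 11, 55394500 to 55423183, minus strand), had 206 and 221 CPM in WT and 94.1 and 93.8 CPM in *Patz1* KO. The groups did not overlap. The log2FC was -1.19 (SE 0.0867, interval -1.37 to -1.0), so WT was 2.28-fold higher. The ratio of *Sparc* to *Serpinh1* counts was 0.637 and 0.681 in WT and 0.662 and 0.620 in *Patz1* KO, with overlapping groups.

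Markers of other cell types moved with genotype as well. All 8 MN markers were detected, with sums of 643 and 599 CPM in WT and 1031 and 939 CPM in *Patz1* KO. Of the 8, 7 were called higher, beside 24.1% of all tested genes. *Isl1* was not called, with 132 and 134 CPM in WT and 111 and 122 CPM in *Patz1* KO (log2FC -0.19, edgeR adjusted p = 0.0768). For the markers that fell, counted next, the share over all tested genes was 23.8%. Of 12 markers of extraembryonic endoderm, 10 were tested and 8 fell, with sums of 99.2 and 112 CPM in WT against 34.8 and 31.5 CPM. *Foxa2* (28.0 and 28.3 CPM in WT, log2FC -2.35) and *Lrp2* (27.0 and 31.3 CPM, log2FC -0.57) held more of the WT sum than any other marker. Which cells made the RNA of these 2 genes was not determined, so the sum is not a measure of endoderm cells. *Sox7* (log2FC -0.11) and *Afp* (-0.04) were tested and not called. Of 10 markers of mesenchyme and fibroblasts, 9 were tested and all 9 fell, with 90.7 and 97.0 CPM against 18.6 and 17.7 CPM. Of 6 endothelial markers 4 fell, with 10.7 and 12.5 CPM against 5.98 and 3.75 CPM. Chondrocyte markers summed to 88.6 and 84.4 CPM in WT and 77.1 and 81.8 CPM in *Patz1* KO. Of these 5 markers 2 were tested, with *Sox9* called higher (log2FC 0.53) and *Col2a1* lower (log2FC -2.31). Pluripotency markers summed to 6.11 and 7.35 CPM against 5.07 and 6.44 CPM, and *Nanog*, the highest of them, had a log2FC of -0.70 (edgeR adjusted p = 0.0551). No marker was at 0 in every library, and *Matn1* was counted once in all. Extraembryonic endoderm and fibroblasts are known to make much collagen, HSP47 and SPARC. The part of these cells in the differences of *Serpinh1*, *Sparc* and *P4ha3* was not tested.

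**Figure D3:**
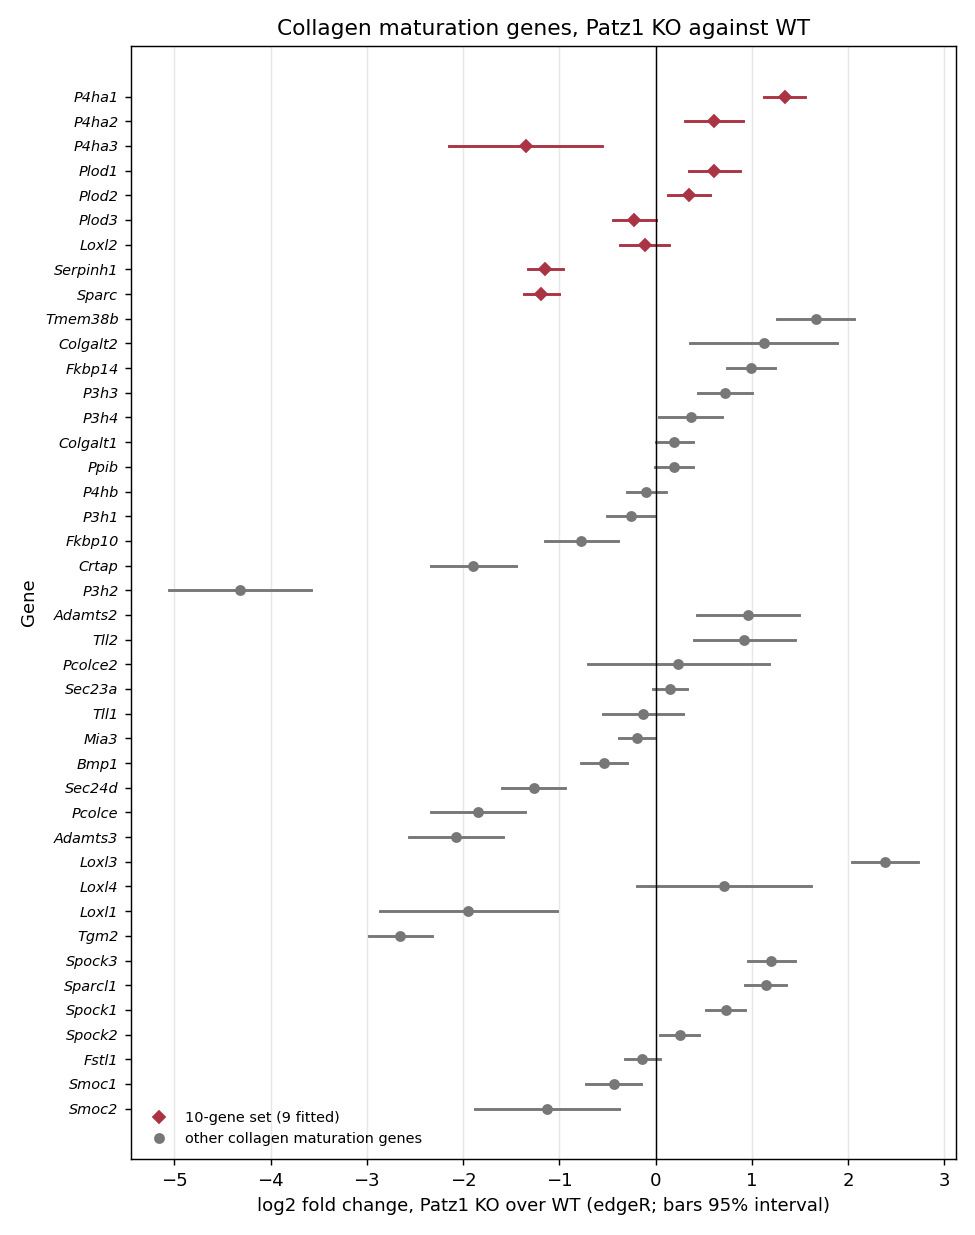
Log2 fold change of *Patz1* KO over WT for the 9 tested genes (red) and the 33 tested other genes of collagen maturation (grey), with bars for the 95% interval of the edgeR fit and a line at 0. *P4ha1* was at 1.34 and *P4ha3*, *Serpinh1* and *Sparc* were at -1.35, -1.14 and -1.19, while the interval of *Loxl2* spans 0.

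Per kb of exon, the order of levels in WT was *Serpinh1* (132.7 CPM per kb), *Sparc* (56.4), *Loxl2* (17.7), *P4ha1* (9.58), *Plod3* (9.14), *Plod2* (7.0), *Plod1* (2.45), *P4ha2* (2.08), *P4ha3* (0.644) and *Lox* (0.128). The WT libraries kept every neighbour in that order apart, with *P4ha1* and *Plod3* closest at 9.44 and 9.72 against 9.28 and 9.0 CPM per kb. In *Patz1* KO the order was *Serpinh1* (60.1 CPM per kb), *Sparc* (24.8), *P4ha1* (24.3), *Loxl2* (16.4), *Plod2* (8.92), *Plod3* (7.82), *Plod1* (3.73), *P4ha2* (3.18), *P4ha3* (0.257) and *Lox* (0.0825). There *Sparc* and *P4ha1*, *Plod2* and *Plod3*, and *Plod1* and *P4ha2* overlapped between libraries. *P4ha1* thus went from below *Loxl2* to a level that overlapped *Sparc*.

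Collagen chains, the substrates of these enzymes, fell more often than they rose. Of 34 genes for the chains of fibrillar, basement membrane and other collagens, 30 were tested. In *Patz1* KO 15 of them fell and 5 rose, beside 23.8% and 24.1% of all tested genes. Their median log2FC was -0.83 beside -0.0014 for all genes. The list was chosen with earlier results of these data known, so its counts are no test of it. Basement membrane chains summed to 707 and 813 CPM in WT and 151 and 147 CPM in *Patz1* KO. Most of the WT sum was *Col4a1* and *Col4a2*, the latter with 198 and 226 CPM against 35.5 and 34.9 CPM. Of the 5 such chains tested, these 2 fell, 1 rose and 2 were not called. Fibrillar chains had 293 and 306 CPM in WT and 179 and 147 CPM in *Patz1* KO. *Col4a1*, a chain of collagen IV, fell from 477 and 559 CPM to 52.4 and 57.9 CPM (log2FC -3.23, SE 0.109, edgeR adjusted p = 1.16e-12). Its exons overlap *Col4a2* on the opposite strand. *Col4a5* rose by 1.11 on the log2 scale (SE 0.110, edgeR adjusted p = 2.69e-07).

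Against the summed counts of all 34 chains, *Serpinh1* counts were 0.239 and 0.220 in WT and 0.228 and 0.255 in *Patz1* KO. *Sparc* counts were 0.152 and 0.15 of them in WT against 0.151 and 0.158, and for both genes the groups overlapped. The 3 P4ha genes had 0.0397 and 0.0372 in WT and 0.175 and 0.223 in *Patz1* KO. For the 3 Plod genes the ratio was 0.0703 and 0.0649 in WT and 0.175 and 0.183 in *Patz1* KO. Against the basement membrane chains, *Serpinh1* counts were 0.458 and 0.400 in WT against 0.943 and 1.03 in *Patz1* KO. For *Sparc* this ratio was 0.292 and 0.272 in WT and 0.624 and 0.638 in *Patz1* KO. Relative to all chains, *Serpinh1* and *Sparc* thus overlapped between genotypes, whereas the P4ha sum and the Plod sum did not. The summed chains were themselves 2.33-fold higher in WT, so a gene with equal CPM in both genotypes also rises in this ratio. In CPM the Plod sum was 1.14-fold and the P4ha sum 2.22-fold higher in *Patz1* KO. Relative to the basement membrane chains alone, which had the larger difference, *Serpinh1* and *Sparc* were both higher in *Patz1* KO. In WT those chain counts were mostly of *Col4a1* and *Col4a2*. These ratios use the same contrast as the choice of the genes and carry no test.

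**Figure D4:**
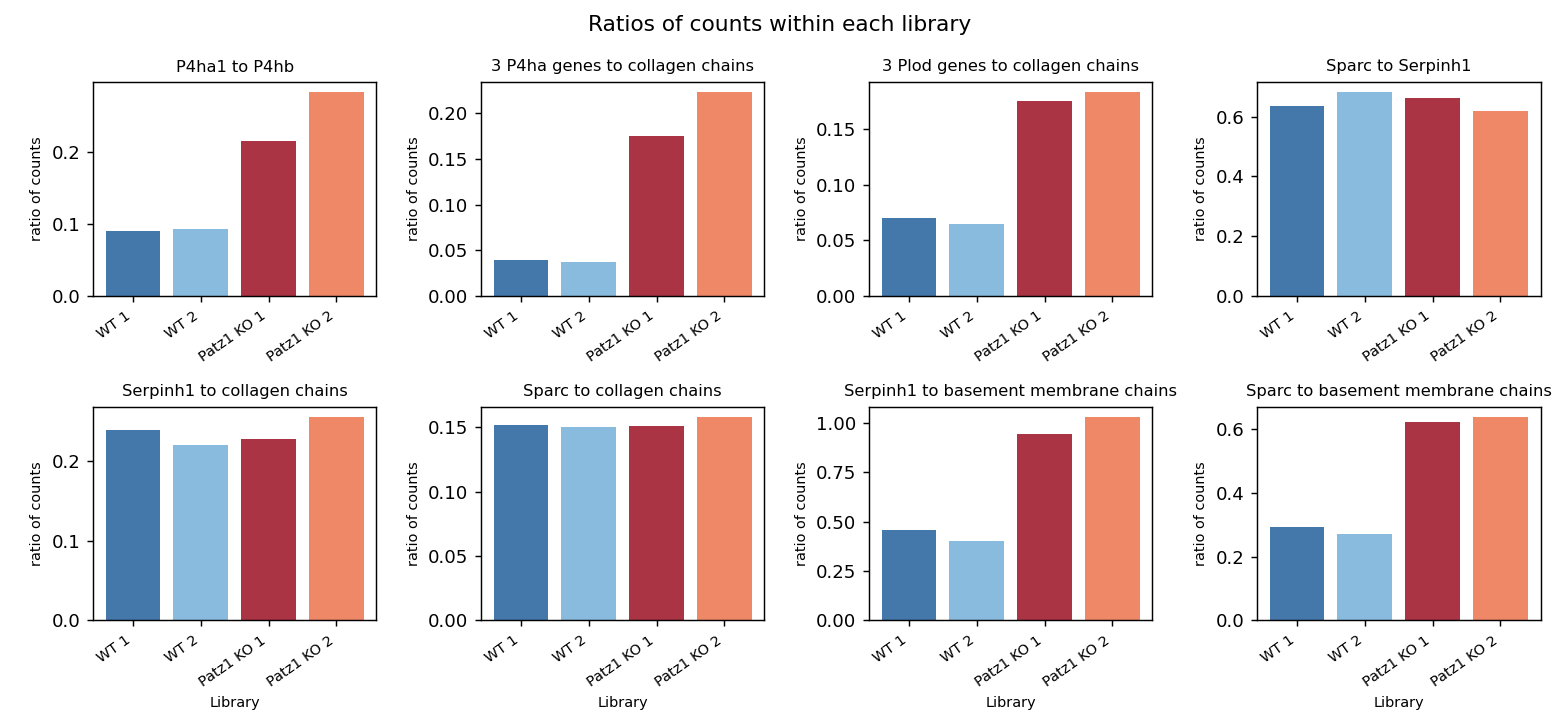
Ratios of counts within each of the 4 libraries in 8 panels, with a bar per library on an axis from 0. Relative to all collagen chains, *Serpinh1* was 0.220 to 0.255 and *Sparc* 0.15 to 0.158 in the 4 libraries, whereas the 3 P4ha genes went from 0.0372 and 0.0397 in WT to 0.175 and 0.223 in *Patz1* KO.

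Other genes of collagen maturation moved in both directions, as did all tested genes. Of 35 maturation genes, 33 were tested and 11 were higher and 11 lower in *Patz1* KO, beside 24.1% and 23.8% of all tested genes. Their median log2FC was 0.15, and the list was chosen with earlier results of these data known. Among the enzymes and chaperones of the endoplasmic reticulum, 4 of 12 were higher and 3 lower. Those higher were *Tmem38b* (log2FC 1.66), *Colgalt2* (1.125), *Fkbp14* (0.99) and *P3h3* (0.72). Those lower were *P3h2*, *Crtap* and *Fkbp10* (-0.77). *P3h2*, a prolyl 3-hydroxylase, fell from 86 and 114 counts to 7 and 6 (log2FC -4.32, SE 0.350, edgeR adjusted p = 2.54e-08). *Crtap*, a partner of prolyl 3-hydroxylation, fell from 9.66 and 10.2 CPM to 2.84 and 2.44 CPM (log2FC -1.89, SE 0.208, edgeR adjusted p = 9.13e-07). Among other crosslinkers, *Tgm2*, a transglutaminase of matrix proteins, fell from 25 and 23.1 CPM to 3.71 and 3.93 CPM (log2FC -2.65, SE 0.156, edgeR adjusted p = 3.99e-10). *P3h2* overlaps *Gm4524*, and *Tgm2* overlaps *Gm20412* and *Rprd1b*, on the other strand.

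Most genes of the oxygen response rose. Of 28 genes with a known response to low oxygen, 27 were tested and 24 rose in *Patz1* KO, beside 24.1% of all tested genes. The median log2FC of the 27 was 1.46. This list too was chosen with earlier results of these data known, so its counts are no test of it. Every value fitted to the 4 libraries was above 0, from 0.07 to 3.36. Without 1 library, *Mif* and *Stc2*, not called, also took values below 0. DESeq2's Wald test called 22 of the 28 higher and 0 lower, beside 2678 higher and 2443 lower of the 18706 genes it fitted. *Slc16a3*, a lactate transporter, rose by 3.36 (SE 0.124, edgeR adjusted p = 1.76e-12), and *Pdk1*, which restrains pyruvate entry into mitochondria, by 2.78 on the log2 scale (SE 0.108, edgeR adjusted p = 2.05e-12). *P4ha1* at 1.34 lay just under the median of that list, and *P4ha2*, *Plod1* and *Plod2* well under it. *Lox*, also named above as such a target, was too low to be tested, and its groups overlapped. *P4ha3*, *Plod3* and *Loxl2* had negative values. Oxygen was not recorded in the labels, and the part of oxygen in these differences was not tested.

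**Figure D5:**
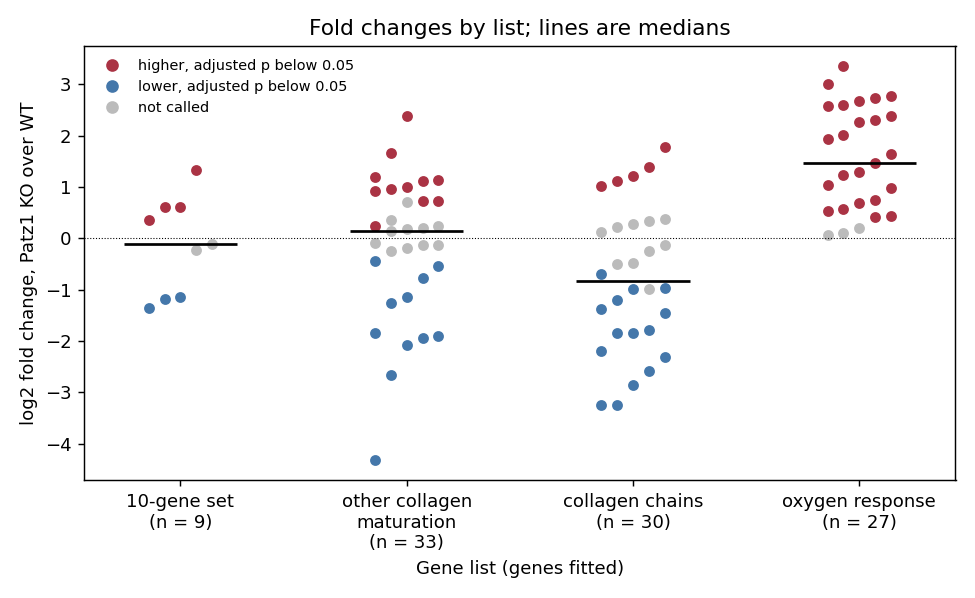
Log2 fold change of *Patz1* KO over WT for each tested gene of the 10 genes and of the lists of other maturation genes, collagen chains and oxygen-response genes, with a point per gene coloured by call and a line at the median. The medians were -0.11, 0.15, -0.83 and 1.46.

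The *Patz1* KO libraries also differed from each other. The CPM of replicate 2 was 1.19 times that of replicate 1 for *P4ha1*, 1.26 times for *P4ha2*, 1.19 times for *Plod2* and 1.42 times for *Loxl2*. It was 0.869 times for *Plod1* and 0.857 times for *Plod3*, while *Serpinh1* (1.06) and *Sparc* (0.996) hardly differed. *P4ha3*, with 16 counts in each, had a ratio of 1.45. Between the WT libraries these genes, *P4ha3* aside (0.823), had ratios of 0.970 to 1.07. Of the 27 oxygen-response genes, 26 were higher in *Patz1* KO replicate 2, with a median ratio of 1.28, beside 47.5% of all tested genes with a median of 0.990. Of the 30 collagen chains, 9 were higher there, with a median of 0.890. The spread of *P4ha1*, *P4ha2*, *Plod2* and *Loxl2* in *Patz1* KO thus ran in the direction of the oxygen-response genes, and that of *Plod1* and *Plod3* against it. Whether the spread of any of these genes has the same source as that of the oxygen-response genes was not tested.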

How the data were processed

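RNA-seq of WT and *Patz1* KO cervical MNs was analysed in 4 libraries, 2 per genotype, grouped by the genotype in the labels. The deposited values are raw read counts per gene symbol that the authors made from ribosomal RNA-depleted, stranded libraries. The paper names Bowtie 2 and mm10, and the submitters' processing notes name TopHat2 2.1.1, Bowtie2 2.3.1, featureCounts 1.6.2 and DESeq2 with no role or order. The strand setting of the counting is not given in the sources used here. Reads from a gene and an overlapping partner on the other strand may then be mixed. Biological replicates are separate differentiations per the paper, and the clone behind each *Patz1* KO library is not named.

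Counts were normalized with TMM and compared with edgeR 4.0.16 (limma 3.58.1, R 4.3.3). The filter was filterByExpr with a minimum count of 10, and glmQLFit and glmQLFTest were used with Benjamini-Hochberg adjustment at 0.05. Standard errors are the absolute log2 fold change over the square root of F. The study's own test, DESeq2's Wald test, was run as an alternative with DESeq2 1.42.0. Exact permutation of 2 against 2 libraries cannot pass 0.05 and was not used. Exon lengths and positions came from GENCODE M21 on GRCm38, promoters from RefSeq, and Python 3.11.15 and matplotlib 3.10.9 were used. Older symbols in the files were read as *P3h1* to *P3h4*, *Colgalt1*, *Colgalt2* and *Ero1a*. The fits were tested on simulated counts.

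The genes and lists were chosen with earlier results of these data known. Named beside the 10 genes were *Patz1*, of each list the called genes with an absolute log2 fold change of at least 1 (up to 8 by p), relatives in the P4ha and lysyl oxidase families, and markers by level or 0 counts. Not every gene taken by this rule is discussed. Alternatives covered scaling, the filter, the replicate block, a minimum fold change and leaving out each library.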

Additional observations from a re-analysis of the deposited data

How the results depend on the processing

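No called gene of the lists changed direction under the alternatives run. Of the 100 genes fitted, 6 took both signs when a library was left out, none of them called in the fit to all 4 libraries (*Loxl2*, *Tll1*, *Pcolce2*, *Col5a1*, *Mif* and *Stc2*, named after their values were seen). Tested against a log2 fold change of at least 1, edgeR called 1 of the 10 genes (*P4ha1*), 7 other maturation genes, 7 collagen chains, 13 oxygen-response genes and 718 of all genes, against 7, 22, 20, 24 and 6837. Leaving out a library gave 5 to 8 of the 10 genes, 17 to 26 other maturation genes, 16 to 22 chains, 23 to 25 oxygen-response genes and 4521 to 7816 of all genes, the lowest total without WT replicate 2. Among the 10 genes *P4ha3* lost its call without WT replicate 1 or *Patz1* KO replicate 1, *Plod2* without either WT library, and *Plod3* gained one without *Patz1* KO replicate 1 and *Loxl2* without replicate 2. Those fits pool the spread and assume that the lone library varies like the other group. DESeq2's Wald test gave 6 (*P4ha3* lost), 19, 15, 22 and 5121. Without length correction *P4ha1* made up 72.4% of its family in WT and 82.9% in *Patz1* KO, *Plod2* 39.5% in WT and *Loxl2* 93.0% in WT. With the replicate number as a block, 8 of the 10 genes (*Plod3* added), 23, 22, 24 and 7363 were called. Same-numbered libraries share only a number (correlation of deviations 0.0485). The log2 fold change without 1 library ran from 1.21 to 1.47 for *P4ha1*, -1.18 to -1.10 for *Serpinh1* and -1.24 to -1.13 for *Sparc*. The spread estimates lean on all genes since each group holds 2 libraries, and *Lox* and *P4ha3* are limited by depth.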

Other observations

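Genes related to *Sparc* moved in both directions. Of 7 relatives, 4 were higher and 2 lower in *Patz1* KO MNs, beside 24.1% and 23.8% of all tested genes. Their sum was 364 and 353 CPM in WT and 465 and 444 CPM in *Patz1* KO. *Sparcl1*, a glycoprotein of the nervous system, rose by 1.14 on the log2 scale (SE 0.102, edgeR adjusted p = 8.08e-08), and *Spock3*, a proteoglycan of the same family, by 1.20 (SE 0.115, edgeR adjusted p = 1.78e-07).

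Of 12 genes for procollagen export and processing, 10 were tested. In *Patz1* KO 2 were higher (*Tll2* and *Adamts2*) and 4 lower, beside 24.1% and 23.8% of all tested genes. *Adamts3*, a procollagen N-proteinase, fell by 2.07 on the log2 scale (SE 0.233, edgeR adjusted p = 1.2e-06). *Tmem38b*, an ion channel listed with the genes of the endoplasmic reticulum instead, rose by 1.66 (SE 0.188, edgeR adjusted p = 1.28e-06). Its WT libraries lay apart, with 17.1 and 8.61 CPM against 38.8 and 42.2 CPM in *Patz1* KO, and it overlaps *n-R5s185* on the same strand.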
